A study of Neurospora crassa with 22 samples.

Results

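Quelling is the silencing of repeated genes in vegetative cells of *Neurospora crassa* by RNA interference, and the 6 genes described here encode its core proteins. They were chosen by name from a list that did not use expression values, but with earlier results of these data known: *qde-1*, *qde-2*, *qde-3*, *dcl-1*, *dcl-2* and *qip*. All 6 were found in the deposited expression table by their NCU identifiers, among 9730 genes in all, and all 6 carry the same symbols in the RefSeq gene table of the NC12 assembly. Expression was measured by RNA-seq in 2 groups of 3 libraries. The *hH1* mutant libraries came from a strain without a functional gene for the linker histone H1, and the wild-type libraries from a strain with that gene. Cells of both groups were conidia grown for 5 hr in Vogel's minimal medium, with glucose by the paper's methods. The labels call these cells mycelium. The allele of *hH1* and the mating type of the strains used for RNA-seq are not given in the sources used here, and each group has 1 genotype. Values are FPKM, fragments scaled to transcript length and to library size, summed over the annotated transcripts of a gene. How the libraries were scaled to each other is not given. Libraries are called the first, the second and the third as they stand in the table.

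In quelling, a RecQ DNA helicase (QDE-3) and an RNA polymerase that uses RNA or DNA as template (QDE-1) are needed to make aberrant and then double-stranded RNA from repeated DNA. The Dicer ribonucleases DCL-1 and DCL-2 cut the double strand into small RNAs with overlapping roles. The Argonaute protein QDE-2 carries one strand of the small RNA to its target transcripts, and the exonuclease QIP removes the passenger strand. The same proteins make small RNAs from ribosomal DNA after DNA damage.

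The libraries matched their strain labels. *hH1* itself was at 9.35, 2.06 and 3.22 FPKM in the mutant and at 266, 327 and 293 FPKM in the wild type (log2 change -5.85, adjusted p = 1.96e-05, limma with Benjamini-Hochberg adjustment). From the steps of low values, the depth was estimated at 5760000 to 9160000 fragments in the mutant libraries and at 6480000 to 11250000 in the wild-type libraries. These are the totals behind the FPKM scale, which equal the sequenced depth only if values were scaled to the mapped fragments of each library. The first mutant library listed had the most genes at 0, with 2185, against 1673 and 1679 in the other mutant libraries and 1577 to 1712 in the wild type. Yet its estimated depth, 9160000 fragments, was the highest of the mutant libraries. That estimate rested on 11 low values, the fewest of the 6 libraries, and the others on up to 27. *matA-1*, a mating type gene, was at 1.75 to 3.83 FPKM in the mutant and listed at 0 in the wild type. A listed 0 is no proof of absence in this table. *gpd-1* (NCU01528), a glycolytic gene that growing cells use and that was chosen after its values were seen, was at 37393, 29444 and 30211 FPKM in the mutant and likewise listed at 0 in all 3 wild-type libraries. Whether the strains differed in mating type was therefore not settled by *matA-1*, and a difference in mating type could not be told apart from the loss of H1. Markers of growing cells were high, with *tef-1*, *act* and *cyc-1* summing to 8139 to 10447 FPKM in the mutant and 7063 to 8168 FPKM in the wild type. Of these, *tef-1* and *act* were each higher in every mutant library than in any wild-type library (log2 changes 0.31 and 0.30, adjusted p = 0.159 and 0.152, limma). The same separation was seen in 752 of the 7208 tested genes. The 5 conidiation genes examined, *con-6*, *con-8*, *con-10*, *eas* and *fl*, summed to 18.9 to 22.4 FPKM in the mutant and 14.5 to 22.1 FPKM in the wild type, and *con-6*, which marks conidia, was at 0 in 1 library of each strain. Among them *eas*, the hydrophobin gene, was at 4.06, 11.9 and 12.1 FPKM in the mutant and at 5.64, 6.33 and 5.96 FPKM in the wild type (log2 change 0.45, adjusted p = 0.398, limma, and 0.0311 to 0.729 over the alternatives). Nothing in the labels says whether the 3 libraries of a strain came from separate cultures beyond the statement that biological replicates were made. The p-values measure the spread between these libraries.

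None of the 6 quelling genes passed the test for a difference between *hH1* mutant and wild-type libraries (limma on log2(FPKM + 1), adjusted p under 0.05, Benjamini-Hochberg over all tested genes). This 0 of 6 stands beside 4.99% of the 7208 tested genes, or 360 genes, of which 125 (1.73% of tested genes) were higher and 235 (3.26%) lower in the mutant. That balance turned with the scaling, to 281 higher and 140 lower with each library centred on its median and 124 higher and 96 lower with the trend with gene length removed. With 1 library left out, the count over all genes was 217, 111 and 135 for the mutant libraries in table order and 29, 119 and 372 for the wild-type libraries, and no quelling gene was called in any of these fits. At an unadjusted p under 0.05 there were 2 quelling genes, *qde-3* and *dcl-1*, both lower in the mutant, beside 25.9% of all tested genes, of which 16.6% of tested genes were lower and the rest higher. These 2 were also the members whose groups did not overlap, beside 32.3% of all tested genes whose groups did not overlap in either direction and 21.8% with every mutant library below every wild-type library. All 6 genes passed the filter on low values, set at 1 FPKM for the mean of all libraries, the lowest being *dcl-2* with a mean of 2.57 FPKM. In RNA from whole cultures, fewer cells that express a gene and less RNA per cell cannot be told apart.

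**Figure D1:**
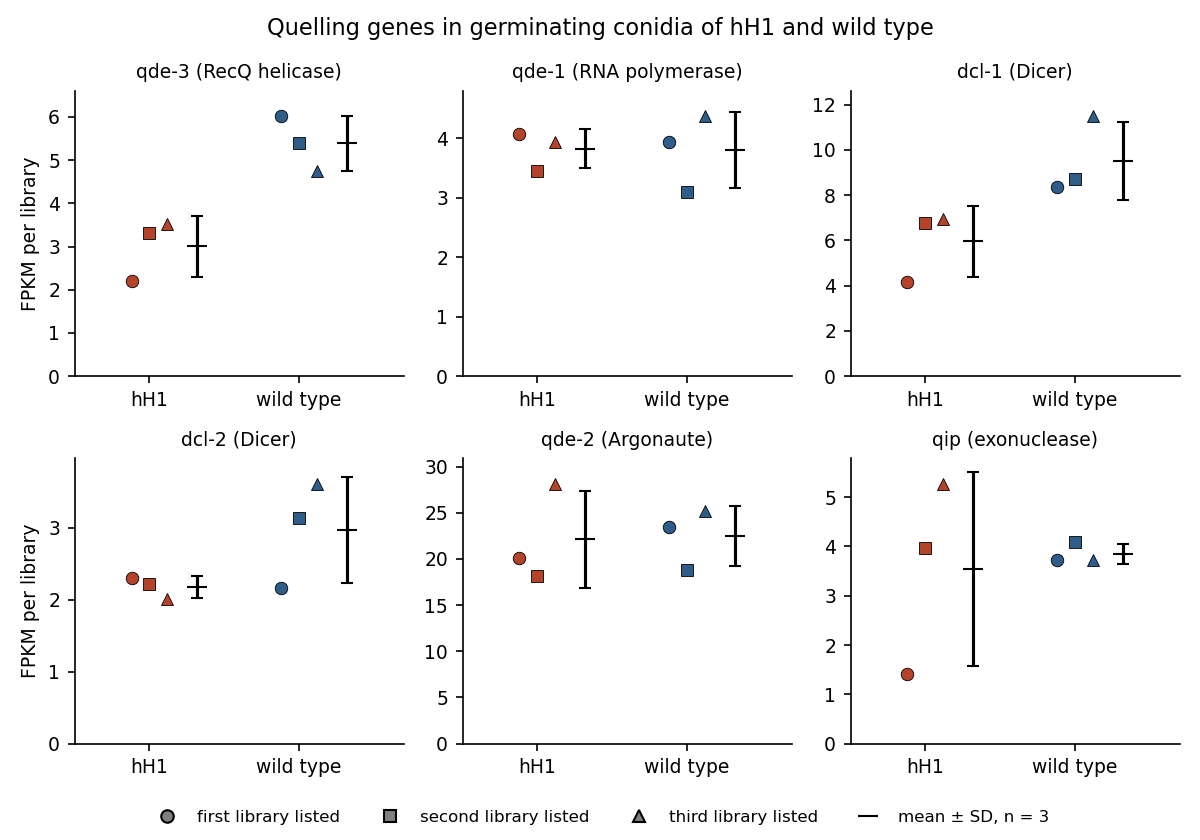
FPKM of each quelling gene (y axis, each panel from 0) in the 3 *hH1* mutant libraries (red) and the 3 wild-type libraries (blue), where symbols mark the order in the table and bars the mean and SD of 3 libraries. For *qde-3* and *dcl-1* every red point lies below every blue point, and for *qde-1*, *dcl-2*, *qde-2* and *qip* the strains overlap.

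*qde-3* (NCU08598, chromosome I 9534663 to 9542052, NC12), the RecQ helicase gene, was at 2.21, 3.31 and 3.51 FPKM in the mutant libraries and at 6.01, 5.39 and 4.76 FPKM in the wild-type libraries. The highest mutant value lay below the lowest wild-type value. The means were 3.01 ± 0.704 FPKM in the mutant and 5.38 ± 0.627 FPKM in the wild type (SD, n = 3 each), a mutant level of 0.559 times the wild-type level. The log2 change was -0.68, with a standard error of 0.22 and a 95% interval of -1.17 to -0.19 for this gene taken alone. It did not pass the adjustment over all genes (adjusted p = 0.0957, limma), and over the alternatives of processing the adjusted p lay between 0.0855 and 0.419. Of all tested genes, 5.20% had a lower log2 change than *qde-3*.

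*qde-1* (NCU07534, chromosome III 4461937 to 4467476), the RNA polymerase gene, differed between the strains by less than its spread. It was at 4.07, 3.45 and 3.94 FPKM in the mutant and at 3.93, 3.10 and 4.37 FPKM in the wild type, with the mutant values all inside the wild-type range. The means were 3.82 ± 0.327 FPKM in the mutant and 3.80 ± 0.643 FPKM in the wild type (SD, n = 3 each). The log2 change was 0.01 with a standard error of 0.21 (adjusted p = 0.973, limma), and its 95% interval of -0.46 to 0.48 leaves room for a modest change in either direction.

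*dcl-1* (NCU08270, chromosome IV 2592691 to 2598157) encodes the Dicer that is also needed for meiotic silencing of unpaired DNA, and the gene table lists it under the synonym Sms-3 as well. It was at 4.15, 6.75 and 6.95 FPKM in the mutant and at 8.35, 8.69 and 11.5 FPKM in the wild type. The strains did not overlap, and the first mutant library listed was the lowest of the 6. The means were 5.95 ± 1.56 FPKM in the mutant and 9.50 ± 1.71 FPKM in the wild type (SD, n = 3 each), a mutant level of 0.626 times the wild-type level. The log2 change of -0.61, with a standard error of 0.22 and a 95% interval of -1.10 to -0.13, did not pass the adjustment (adjusted p = 0.118, limma). Without the first mutant library it was -0.41 (adjusted p = 0.226, limma). The annotated span of *dcl-1* overlaps that of *pdx-4* by 37 bases. *pdx-4* was at 529 FPKM on average in the mutant and 451 FPKM in the wild type, so reads of the shared end could fall to either gene if strand was not used in the counting, which the sources used here do not state.

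*dcl-2* (NCU06766, chromosome II 2009452 to 2015181), the Dicer gene that carries most of the small RNA production in quelling, had the lowest mean of the 6. Its values were 2.30, 2.22 and 2.01 FPKM in the mutant and 2.16, 3.13 and 3.61 FPKM in the wild type. The first wild-type library listed lay among the mutant libraries and the other wild-type libraries lay above them. The means were 2.18 ± 0.147 FPKM in the mutant and 2.97 ± 0.737 FPKM in the wild type (SD, n = 3 each). The log2 change was -0.30 with a standard error of 0.25 and a 95% interval of -0.85 to 0.25 (adjusted p = 0.450, limma).

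*qde-2* (NCU04730, chromosome VI 574929 to 579388), the Argonaute gene, was the highest of the 6 in every library. It was at 20.1, 18.2 and 28.1 FPKM in the mutant and at 23.4, 18.8 and 25.2 FPKM in the wild type, so that the lowest and the highest of the 6 values were both from the mutant. The means were 22.1 ± 5.28 FPKM in the mutant and 22.5 ± 3.29 FPKM in the wild type (SD, n = 3 each). The log2 change was -0.04 with a standard error of 0.19 and a 95% interval of -0.45 to 0.37 (adjusted p = 0.922, limma). Of its 2 annotated transcripts, NCU04730T1 held all but 0.0137% of the FPKM or less in every library, and NCU04730T0 was at 0.00249 to 0.00251 FPKM throughout. Nearly the same value, 0.00250 FPKM, was listed for NCU00076T0 of *qip* in the first wild-type library. Values this constant are not read here as measured expression.

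*qip* (NCU00076, chromosome III 2528710 to 2531908), the exonuclease gene, had the widest spread of the 6 in the mutant relative to its mean. It was at 1.41, 3.96 and 5.27 FPKM in the mutant libraries and at 3.72, 4.09 and 3.73 FPKM in the wild-type libraries. The wild-type values lay close together, and the mutant values lay below, within and above their range. The means were 3.54 ± 1.96 FPKM in the mutant and 3.85 ± 0.208 FPKM in the wild type (SD, n = 3 each). The log2 change of -0.20 had a standard error of 0.33 and a 95% interval of -0.93 to 0.53 (adjusted p = 0.720, limma). It was 0.20 without the first mutant library listed. The span of *qip* overlaps that of *tim14* by 42 bases, and *tim14* was at 138 FPKM on average in the mutant and 137 FPKM in the wild type.

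The transcripts assigned to *qip* differed between libraries more than its sum did. NCU00076T0 held 95.4%, 98.4% and 100% of the *qip* FPKM in the mutant libraries, and 0.0671%, 98.5% and 98.3% in the wild-type libraries. In the first wild-type library listed, NCU00076T1 was at 3.72 FPKM and NCU00076T0 at 0.00250 FPKM, while in the other 5 libraries NCU00076T1 was at 0.0648 FPKM or less. One wild-type library therefore stood alone, and the strains were not separated. The sum over both transcripts in that library, 3.72 FPKM, was close to that of the other wild-type libraries. Values per transcript are estimates where transcripts of a gene share reads, so the sum was used for *qip* except in the alternatives by transcript.

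**Figure D2:**
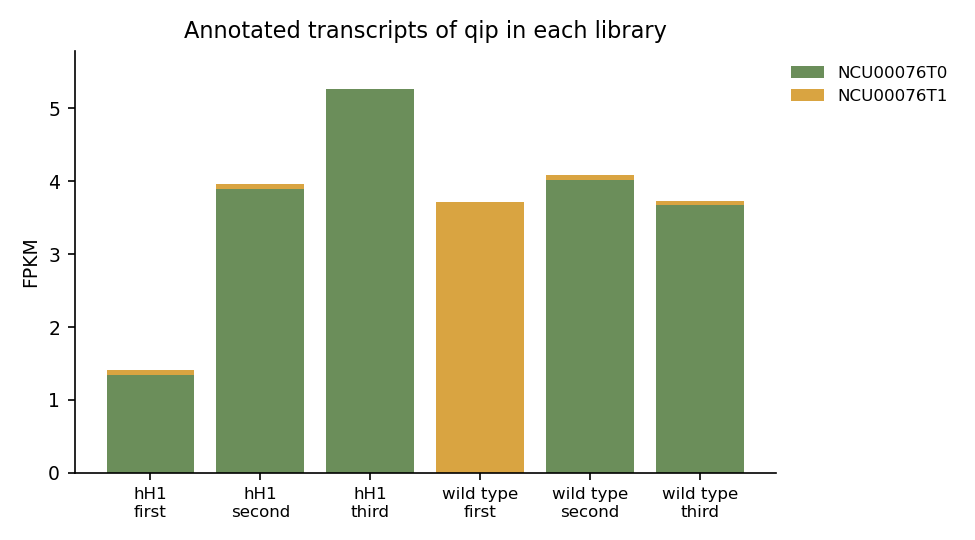
FPKM (y axis) of the 2 annotated transcripts of *qip* in each library (x axis), stacked so that the bar height is the value of the gene, with *hH1* mutant libraries at left and wild-type libraries at right. In 5 libraries nearly the whole bar is NCU00076T0, and in the first wild-type library listed it is NCU00076T1 at 3.72 FPKM.

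FPKM are scaled to transcript length, so the levels of the 6 genes can be set side by side. In all 6 libraries *qde-2* came first and *dcl-1* second. In the mutant *qde-3* had position 5 in each library, and in the wild type it had position 3 in each. *dcl-2* was last in 2 libraries of each strain. The order among *qde-1*, *qip* and *dcl-2* changed from library to library in both strains. The means of *qde-1* and *qip* differed by less than the SD of *qip* in the mutant and by less than that of *qde-1* in the wild type. *qde-2* held 58.7%, 48.0% and 56.4% of the summed FPKM of the 6 genes in the mutant, and 49.2%, 43.5% and 47.4% in the wild type. The sums were 34.2, 37.8 and 49.8 FPKM in the mutant and 47.6, 43.2 and 53.1 FPKM in the wild type, and the strains overlapped. Within the genome, *qde-2* was higher than 66.3% to 74.7% of the 9730 genes depending on the library, *dcl-1* higher than 39.7% to 54.2%, and *dcl-2* higher than 31.3% to 35.2%. When genes were ranked by mean wild-type level and divided into 5 groups, *qde-2* fell in group 2, *qde-3* and *dcl-1* in group 3, and *qde-1*, *dcl-2* and *qip* in group 4.

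At these levels the members rest on few fragments. From the estimated depths and the annotated gene spans, which include introns and so set upper limits, *qip* had at most 41 to 134 fragments per library, *dcl-2* 66 to 233, *qde-1* 126 to 272, *qde-3* 149 to 395, *dcl-1* 208 to 706 and *qde-2* 603 to 1263. Counting alone then gives a coefficient of variation of at least 15.6% in the library with the fewest *qip* fragments, which was the first mutant library, and of at least 4.07% for the fewest *qde-2* fragments.

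Ratios between members within a library do not depend on how the libraries were scaled to each other. In 4 pairs, the ratio was compared between strains by an exact permutation test over the 20 labelings of the 6 libraries, two-sided, for which 0.1 is the smallest possible p, so that no pair could pass a threshold of 0.05. The helicase-to-polymerase ratio, *qde-3* over *qde-1*, was 0.541, 0.957 and 0.892 in the mutant and 1.53, 1.74 and 1.09 in the wild type. Every mutant library was below every wild-type library, with a difference of -0.88 in log2 ratio (exact permutation p = 0.1, adjusted p = 0.4 over the 4 pairs), and this difference lay between -1.08 and -0.62 when each library was left out in turn.

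The ratios of the 2 Dicer genes overlapped between the strains. The ratio of *dcl-2* to *dcl-1* was 0.554, 0.329 and 0.290 in the mutant and 0.259, 0.360 and 0.315 in the wild type, so *dcl-1* was the higher of the 2 in all 6 libraries. The difference in log2 ratio was 0.28 (exact permutation p = 0.5, adjusted p = 0.9), and -0.0013 without the first mutant library listed. *qde-1* over *qde-2* was 0.203, 0.190 and 0.140 in the mutant and 0.168, 0.165 and 0.173 in the wild type (difference in log2 ratio 0.06, exact permutation p = 0.9, adjusted p = 0.9). *qde-2* over *qip* was 14.3, 4.59 and 5.34 in the mutant and 6.29, 4.60 and 6.75 in the wild type (difference in log2 ratio 0.28, exact permutation p = 0.9, adjusted p = 0.9). It was -0.23 without the first mutant library, whose ratio of 14.3 stood apart from the other 5.

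**Figure D3:**
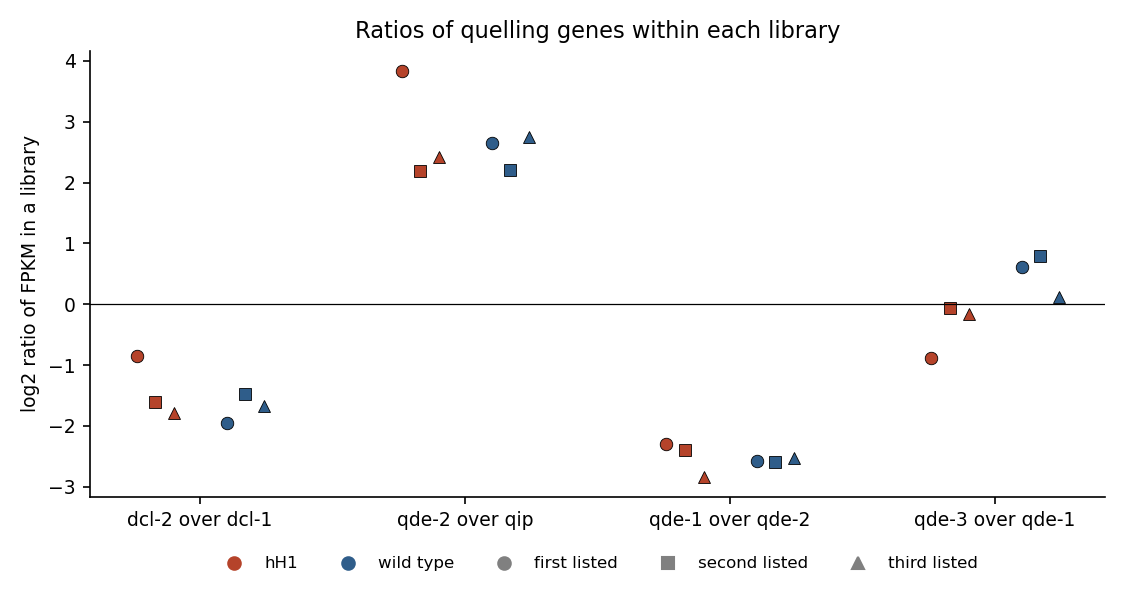
Log2 ratio of FPKM of 2 quelling genes within a library (y axis) for 4 pairs (x axis), with *hH1* mutant libraries in red at left and wild-type libraries in blue at right, and symbols for the order in the table. Only *qde-3* over *qde-1* separates the strains, with ratios of 0.541 to 0.957 in the mutant and 1.09 to 1.74 in the wild type.

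The quelling genes are long, and length went with the strain difference across the genome. The spans of *qde-3*, *dcl-2*, *qde-1*, *dcl-1* and *qde-2* are 7390, 5730, 5540, 5467 and 4460 bases, which places these 5 genes in the longest of 5 equal groups of tested genes, 3596 bases or more, and *qip* spans 3199 bases. The median log2 change was -0.28 in the 1442 genes of that group and 0.12 in the 1442 shortest genes, beside -0.25 over the 6 quelling genes and -0.09 over all tested genes. In the longest group, 44.9% of genes had every mutant library below every wild-type library, and 6.10% passed the test. Of those long genes, 6.10% had a lower log2 change than *qde-3* and 8.95% a lower one than *dcl-1*, while 44.7% were lower than *dcl-2*, 83.6% lower than *qde-2* and 88.2% lower than *qde-1*.

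With the trend with gene length removed from each library, the changes of *qde-3* and *dcl-1* were smaller, at -0.30 and -0.29 (adjusted p = 0.419 and 0.418, limma). The other log2 changes were then 0.34 for *qde-1*, 0.24 for *qde-2*, 0.03 for *dcl-2* and -0.03 for *qip*, with 3 of the 6 below 0, against 5 of 6 with the libraries as deposited. Centring each library on its median moved the median log2 change of all tested genes from -0.09 to 0.01. Relative to that median the members stood at -0.58 for *qde-3*, -0.51 for *dcl-1*, -0.20 for *dcl-2*, -0.10 for *qip*, 0.07 for *qde-2* and 0.12 for *qde-1*. The direction of *qde-2* thus turned with the scaling and that of *dcl-2* with removal of the length trend. The part of gene length in the values of *qde-3* and *dcl-1* was not tested beyond this.

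**Figure D4:**
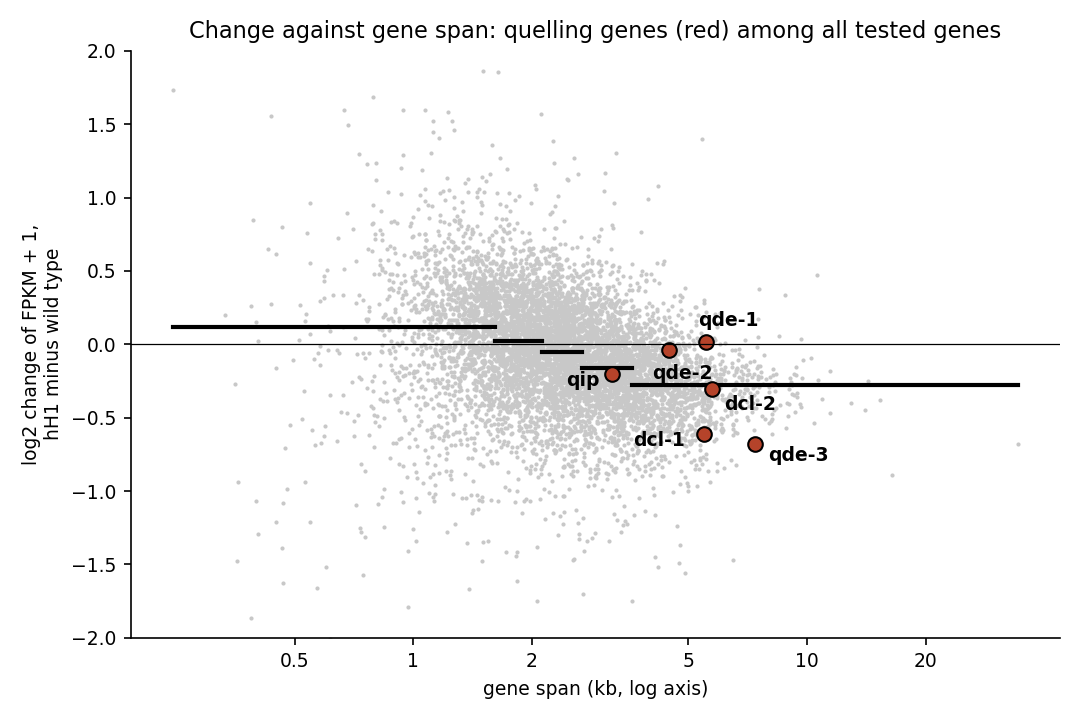
Log2 change of FPKM + 1, *hH1* mutant minus wild type (y axis, cut at 2 in either direction, with 15 genes outside), against gene span in kilobases (x axis, log scale), for all tested genes (grey) and the 6 quelling genes (red), with black lines for the median of each of 5 length groups. The medians run down to -0.28 in the longest group, *dcl-2* lies near that line, *qde-3* and *dcl-1* lie below it, and *qde-1* and *qde-2* lie above it.

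A list of 15 other genes tied to RNA silencing, DNA repair factors linked to it included, was examined alongside. Of these, 9 passed the filter, 0 differed between the strains at an adjusted p under 0.05, and 0 at an unadjusted p under 0.05 (limma), beside 4.99% and 25.9% of all tested genes. For 2 of the 9, *atrx* and NCU06684, every mutant library was below every wild-type library, beside 21.8% of all tested genes. Both lie in the longest group of tested genes, where that share was 44.9%. Of the 9, 8 had a log2 change below 0, with a median of -0.27, beside -0.09 over all tested genes. Centring each library left 7 of the 9 below 0, and removal of the length trend 5 of 9.

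Meiotic silencing is the related pathway that acts in sexual cells. Of its genes examined here, *sad-1*, *sad-2*, *sad-3* and *sms-2* were listed at 0 or at no more than 0.104 FPKM in every library. The listed zeros carry the limit shown by *gpd-1*. Not all were near 0, since *atrx* (NCU06190), which entered the list as a gene of this pathway, was at 4.18 to 6.45 FPKM over the libraries. *sad-2* was listed at 0 in all 6 libraries. *sad-1*, which encodes the RNA polymerase of that pathway, was at 0, 0.0285 and 0.0369 FPKM in the mutant and at 0 in the wild type. The Argonaute gene *sms-2* was at 0.104, 0 and 0 FPKM in the mutant and at 0 in the wild type, and *sad-3*, a helicase gene, was at 0 in the mutant and at 0.0470, 0 and 0.0271 FPKM in the wild type. *qde-1* and *qde-2*, which encode the quelling proteins of the same kinds as SAD-1 and SMS-2, were at no less than 3.10 and 18.2 FPKM in any library. *dcl-1*, which both pathways use, was at 4.15 FPKM or more.

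*rrp3*, a further RNA-dependent RNA polymerase gene, was near the level of *qde-1*, at 3.65, 2.54 and 3.32 FPKM in the mutant and 3.47, 3.57 and 5.11 FPKM in the wild type (log2 change -0.27, adjusted p = 0.475, limma). *rpa-1* encodes the large subunit of the single-strand DNA binding protein RPA, which binds QDE-1. It was at 28.9, 30.4 and 24.4 FPKM in the mutant and 20.4, 28.3 and 28.9 FPKM in the wild type, and was the one tested gene of the list with a log2 change above 0 (0.12, adjusted p = 0.676, limma). The strains overlapped for both genes.

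Among genes of DNA repair, *mus-11*, related to RAD52, averaged 5.83 ± 0.385 FPKM in the mutant and 7.60 ± 1.36 FPKM in the wild type (SD, n = 3 each). *mus-25*, related to RAD54, was the lowest tested gene of the list, with 1.17 ± 0.317 FPKM in the mutant and 2.07 ± 0.711 FPKM in the wild type (SD, n = 3 each). Their log2 changes were -0.32 (adjusted p = 0.300, limma) and -0.48 (adjusted p = 0.329, limma), and the strains overlapped for both. *atrx*, which entered the list for meiotic silencing and not for DNA repair, has the symbol of the ATRX chromatin remodelers. Its values were 4.46, 5.03 and 4.18 FPKM in the mutant and 5.45, 5.65 and 6.45 FPKM in the wild type. These did not overlap, and the log2 change of -0.30 did not pass the test (adjusted p = 0.325, limma). The other 3 tested genes have no symbol in the gene table. NCU06684 was at 27.2, 27.0 and 26.3 FPKM in the mutant and 28.7, 30.2 and 28.1 FPKM in the wild type, without overlap (log2 change -0.11, adjusted p = 0.604, limma). NCU09825 was at 10.1, 11.4 and 10.7 FPKM in the mutant and 16.3, 15.8 and 11.2 FPKM in the wild type (log2 change -0.38, unadjusted p = 0.0522, adjusted p = 0.199, limma). NCU03337 averaged 3.19 FPKM in the mutant and 3.40 FPKM in the wild type. The remaining members without a symbol, NCU01591 and NCU06147, entered the list as genes of meiotic silencing. They were at 0 in every library except for 0.166 FPKM of NCU06147 in 1 mutant library.

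**Figure D5:**
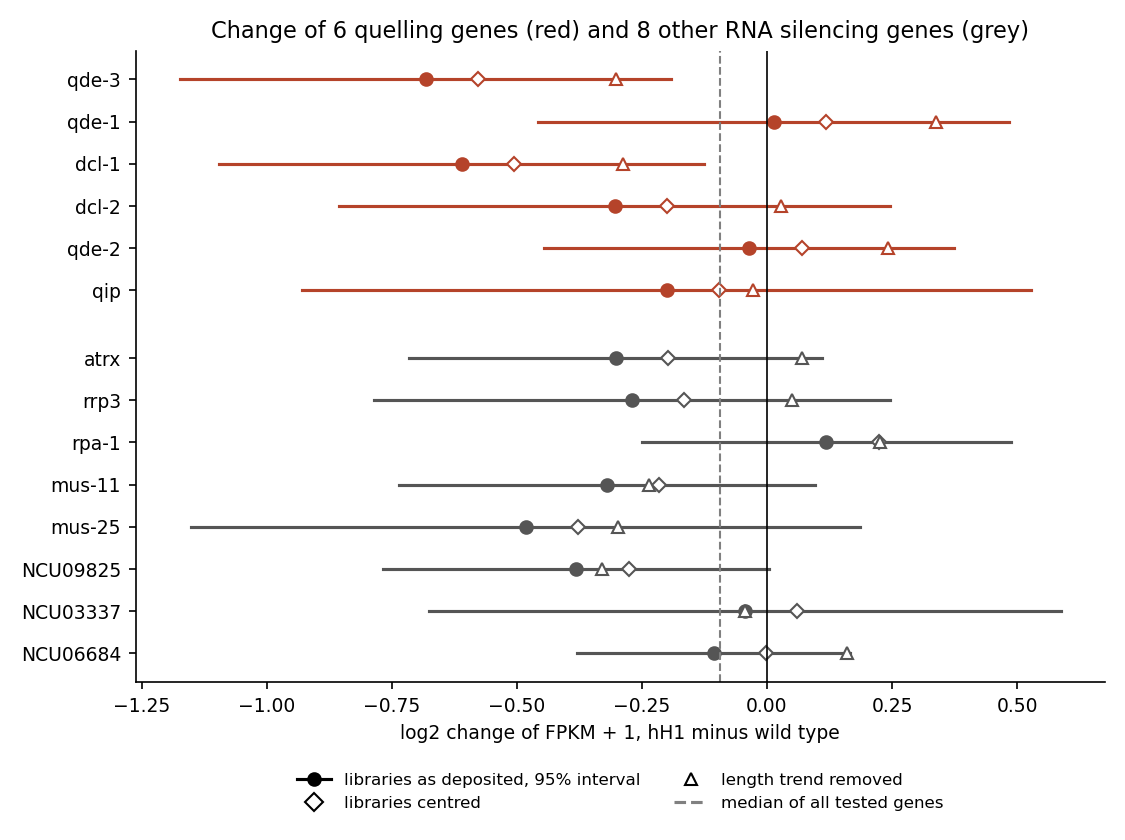
Log2 change of FPKM + 1, *hH1* mutant minus wild type (x axis), for the 6 quelling genes (red) and 8 of the 9 tested genes of the second list (grey), with 95% intervals from limma, and with values after centring each library (diamonds) and after removal of the trend with gene length (triangles); the dashed line is the median of all tested genes. The intervals of *qde-3* and *dcl-1* alone end below 0, before adjustment over all genes, and both genes move toward 0 with the length trend removed.

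The nearest tested genes on either side of each member were examined as well, 12 genes in all. None of the 12 passed the test (limma), beside 4.99% of all tested genes, and 4 had an unadjusted p under 0.05, beside 25.9%. In 7 of the 12 every mutant library was below every wild-type library, beside 21.8% of all tested genes, and in 0 every one was above. The share below was 44.9% in the longest group of tested genes, and the length of the 12 neighbours was not taken into account. Their log2 changes ran from -0.53 to 0.25 with a median of -0.27, beside -0.09 over all tested genes. The lowest was *mus-52*, a gene of nonhomologous end joining that lies 21 bases from *qip*. It was at 4.87, 7.22 and 6.43 FPKM in the mutant and 7.85, 10.3 and 9.89 FPKM in the wild type, and the strains did not overlap (adjusted p = 0.122, limma). Beside *qde-2*, *sah-2* averaged 91.1 FPKM in the mutant and 124 FPKM in the wild type, with the lowest adjusted p of the 12 (log2 change -0.44, adjusted p = 0.0639, limma). Beside *qde-3*, NCU08597 averaged 9.95 FPKM in the mutant and 14.6 FPKM in the wild type (log2 change -0.50, adjusted p = 0.103, limma). The genes next to *dcl-1* went opposite ways, with log2 changes of -0.38 for NCU08272 and 0.25 for *pdx-4*.

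Over the 6 libraries the members did not share one pattern. The highest Pearson correlation of log2(FPKM + 1) between 2 members was 0.84, for *qde-3* with *dcl-1*, followed by 0.68 for *qde-1* with *qde-2*, 0.67 for *dcl-1* with *qip* and 0.66 for *dcl-1* with *dcl-2*. The lowest was -0.28, for *qde-1* with *qip*. These correlations are over 6 libraries that fall into 2 strains, and genes in them share depth and scaling, so they only describe the table. Among 1022 other tested genes with a symbol, the profile nearest to that of *qde-3* was that of *crf1-1* (correlation 0.995), followed by *cyt-19* (0.995), and 120 genes had a correlation above 0.9. For *dcl-1* the nearest were *rrg-2* (0.987) and *vma-6* (0.986), with 66 genes above 0.9. For *qip* they were *pex5* (0.996) and *tah-1* (0.987), which were likewise lowest in the first mutant library, at 36.7 FPKM for *pex5* and 5.08 FPKM for *tah-1*. For *qde-2* they were *trp-3* (0.964) and *gh76-7* (0.959), for *dcl-2* they were *gla-2* (0.968) and *gel-1* (0.951), and for *qde-1* they were *ada-3* (0.917) and *stk-11* (0.908). *qde-1* had the fewest genes above 0.9, with 3.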

How the data were processed

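Stranded libraries were made after removal of ribosomal RNA. Per the submitters' processing notes and the paper's methods, the authors aligned reads to NC12 with TopHat2 2.0.14 and made the deposited FPKM values per transcript with Cufflinks and Cuffnorm, whose version and scaling between libraries are not given in the sources used here. The 10785 transcripts were summed to genes, and 0 columns were left unused. Column names show the strain, while their numbers are not those of the sample labels. ChIP-seq and MNase-seq were not analysed here.

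Genes whose mean FPKM reached 1 were tested as log2(FPKM + 1) with limma 3.58.1 in R 4.3.3 (eBayes with a trend, two-sided, Benjamini-Hochberg). A log2 change on this scale understates the change of low genes. Ratios used an exact permutation test. The length trend was a loess curve on log2 gene span for each library, with spans from the RefSeq gene table. Depth came from the steps of low FPKM among 184 transcripts with known exon length, within 0.1 of whole fragments, after subtracting 210 bases from each length. Only 11 to 27 values per library were low enough to enter the estimate. Limits drawn from it cover counting error only. limma and the depth estimate were tested on simulated data. Python 3.11.15, pandas 2.3.3 and matplotlib 3.10.9 did the rest.

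The genes named are the members, *hH1*, the second list, the nearest tested neighbours and the 2 most alike genes with a symbol. Markers of conidia and growing cells and *matA-1* were checked too, and *gpd-1* was added after its values were seen. One gene of the second list enters its counts and median but is not reported here. The members and lists were chosen with earlier results of these data known. Alternatives were pseudocount, filter, scaling, length trend, variance settings, transcripts and leaving out each library.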

Additional observations from a re-analysis of the deposited data

How the results depend on the processing

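The count of quelling genes called was 0 under all 15 alternatives, and so was that of the second list. Over all genes the count was 360, and 188 without a filter on low values, 220 with the length trend removed, 135 without the variance trend and 45 with transcripts in place of genes. When each library was left out it ran between 29 (no first wild-type library) and 372 (no wild-type library in position 3), and was 217, 111 and 135 on leaving out the first, second and the third mutant library and 119 on leaving out the second wild-type library. The causes were not tested. The share of calls that were higher in the mutant was 34.7%, against 66.7% under centring of libraries, 47.7% under quantile normalization and 56.4% with no length trend. *qde-3* and *dcl-1* stayed below 0 throughout. *qde-2* turned to 0.069 after centring, 0.053 after quantile normalization and 0.24 with the length trend removed, *dcl-2* to 0.028 with the length trend removed, and *qip* to 0.54 by its main transcript alone. With each library left out, log2 changes ran from -0.10 to 0.10 for *qde-1*, -0.21 to 0.088 for *qde-2*, -0.78 to -0.53 for *qde-3*, -0.72 to -0.41 for *dcl-1*, -0.46 to -0.19 for *dcl-2* and -0.49 to 0.20 for *qip*. By main transcripts alone, the difference in log2 ratio of *qde-2* over *qip* was -3.22, since NCU00076T0 was near 0 in the first wild-type library. A fit at a mean of 5 FPKM could not include *qde-1*, *qde-3*, *dcl-2* and *qip*. No paired analysis was possible because the table's columns do not carry the replicate numbers of the labels. The lowest estimated fragment numbers were those of *qip* and *dcl-2*, and whether depth set their spread was not tested.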
